A study of Mus musculus with 6 samples.

Results

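The translation factors described here are the 68 protein-coding genes whose mouse symbol starts with Eif or Eef followed by a number, out of 54838 genes counted in RNA of the mouse hippocampus. They were taken by name from the GRCm38 annotation (Ensembl 95, GENCODE M21), without use of their levels, and were sorted by known role into 13 groups. Earlier results of these data were known when this family was chosen. Besides the factors themselves, the symbols take in regulators that are no factors: the 4 eIF2 kinases, the eEF2 kinase, the eIF4E-binding proteins, and 6 genes for methyltransferases and a domain protein that carry a factor in their name. Of the 68 genes, 66 had enough counts to be tested. Eif2s3y, the Y-linked copy of the eIF2 gamma subunit, had 0 counts in all 6 libraries, which came from females, and a count of 0 allows at most 0.0572 to 0.0802 CPM in a library (3 counts, counting error only), where CPM are counts scaled to the total of the library. Eif4e1b, a cap-binding protein of oocytes, had at most 1 count in a library.

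Each mouse gave a hippocampal library, and all 6 were females at 7 months of age, 3 being wild-type and 3 from the line FVB/NJ-Tg(ORAI1)Ibd. These transgenic mice carry a coding sequence of human ORAI1, the pore subunit of the store-operated calcium channel, in a Thy-1.2 cassette, which drives expression in neurons, and were compared to learn how gene expression changed with the channel. Orai1 was counted at a mean of 7.47 CPM in wild-type hippocampi and of 320.2 CPM in those with the transgene, without overlap, as the genotype labels say.

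Protein synthesis starts when eIF2 brings the initiator tRNA to the small ribosomal subunit, which eIF1, eIF1A, eIF3 and eIF5 hold ready, while eIF4F binds the cap of the mRNA. The guanine nucleotide exchange factor eIF2B reloads eIF2, and kinases that sense stress slow this step by phosphorylating eIF2. In elongation eEF1A delivers aminoacyl-tRNA, the eEF1B subunits reload eEF1A, and eEF2 moves the ribosome along. In neurons these steps are regulated at synapses, and several elongation factors share with ribosomal proteins a pyrimidine-rich start of the mRNA (the TOP motif) through which mTOR sets their translation.

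The libraries held 37414241 to 52497799 counts, and the 68 members took 0.990% to 1.01% of them in wild-type and 1.02% to 1.04% in transgenic mice. Neuronal markers were abundant in every library (Snap25 at means of 1882 and 1913 CPM), and 6 markers of hippocampal pyramidal and granule neurons had a median log2 fold change of 0.01. Of 7 general neuron markers Slc17a7 was higher (0.26, edgeR adjusted p = 0.0356), and of 4 endothelial markers Cldn5 was (0.66, edgeR adjusted p = 0.0430), but 0 markers of either list passed with offsets for GC content or with the replicate block, and with offsets for length 1 neuron marker and 0 endothelial markers did. Of 19 markers of the choroid plexus epithelium, a tissue next to the hippocampus, 18 were lower in the transgenic mice, with summed levels of 3994 to 6152 CPM against 611 to 891 CPM. None of these 19 was at 0. The 6 microglia markers summed to 196 to 273 CPM in wild-type and at 200.3 to 308.6 CPM in transgenic mice. In bulk RNA fewer cells of a type and less RNA per cell cannot be told apart, and the part of cell composition in the results below was not tested.

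The pyrimidine-rich start that ribosomal protein genes share was looked for around the start sites, because the comparison with ribosomal proteins is the one these genes are read against. The letters CTTTC were searched on the sense strand from 20 bases before to 20 bases from the RefSeq start (GRCm38.p6). They were present in 32.8% of 58 cytosolic ribosomal protein genes, in 6.44% of all 27025 genes of the promoter table and in 5 of the 52 members that the table holds (9.62%). On the opposite strand (GAAAG in the same windows) the shares were 6.90%, 5.67% and 3.85%. The 5 members with CTTTC were Eif1ad, Eif2b5, Eif2s3y, Eif3f and Eif3k. A match of these letters is a description and not a binding site. The windows below belong to those members that differed between genotypes by the test used throughout and that the table holds, with CTTTC in capitals and the start at base 21.
Eif3f, chr7:108934395-108934434, plus strand: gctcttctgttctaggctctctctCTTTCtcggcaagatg
Eif3k, chr7:28981869-28981908, minus strand: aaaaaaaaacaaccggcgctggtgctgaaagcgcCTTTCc
Eef1b2, chr1:63176811-63176850, plus strand: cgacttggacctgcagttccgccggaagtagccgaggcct
Eif1b, chr9:120492586-120492625, plus strand: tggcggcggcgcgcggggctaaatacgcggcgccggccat
Eif5a2, chr3:28781257-28781296, plus strand: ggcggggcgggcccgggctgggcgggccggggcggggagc
Both eIF3 subunits hold the letters downstream of the start, and the other windows do not hold them. As only 32.8% of the ribosomal protein genes hold them, a window without the letters does not show that a pyrimidine-rich start is absent. Eef1d, Eef1g and Eif3h differed too and have no window here.

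Of the 66 tested members 8 differed between genotypes (12.1%), against 7.10% of all 19087 genes tested. The test was edgeR's quasi-likelihood test with p-values adjusted over all genes and a threshold of 0.05. Higher in the transgenic mice were 7 members (10.6%, against 3.10% of all genes), namely Eif3f, Eif3h and Eif3k of eIF3, Eef1b2, Eef1d and Eef1g of eEF1, and Eif1b. Only Eif5a2 was lower, against 4.0% of all genes. The changes were small, from 0.19 to 0.34 in size on the log2 scale. At an unadjusted p under 0.05, 17 members were higher and 6 lower, and 27.8% of all genes passed that limit. In 33 members (50.0%) the 3 transgenic mice did not overlap with the 3 wild-type mice, 26 being higher and 7 lower, where 34.9% of all genes were apart in this way (16.9% higher and 17.9% lower). Across the 66 members 40 fold changes were positive and 26 negative, with a median log2 fold change of 0.08 against −0.01 over all genes. The adjusted counts changed with the mice included. Without wild-type mouse 1, wild-type mouse 2 or transgenic mouse 3 no member passed the adjusted threshold (14, 18 and 16 were higher and 1, 2 and 3 lower at an unadjusted p under 0.05), without transgenic mouse 2 only Eif3f did, and without either of the remaining mice 6 did. In the 3 fits with no called member the median over the members was 0.092, 0.12 and 0.12, and 11, 13 and 19 of all genes were higher.

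**Figure D1:**
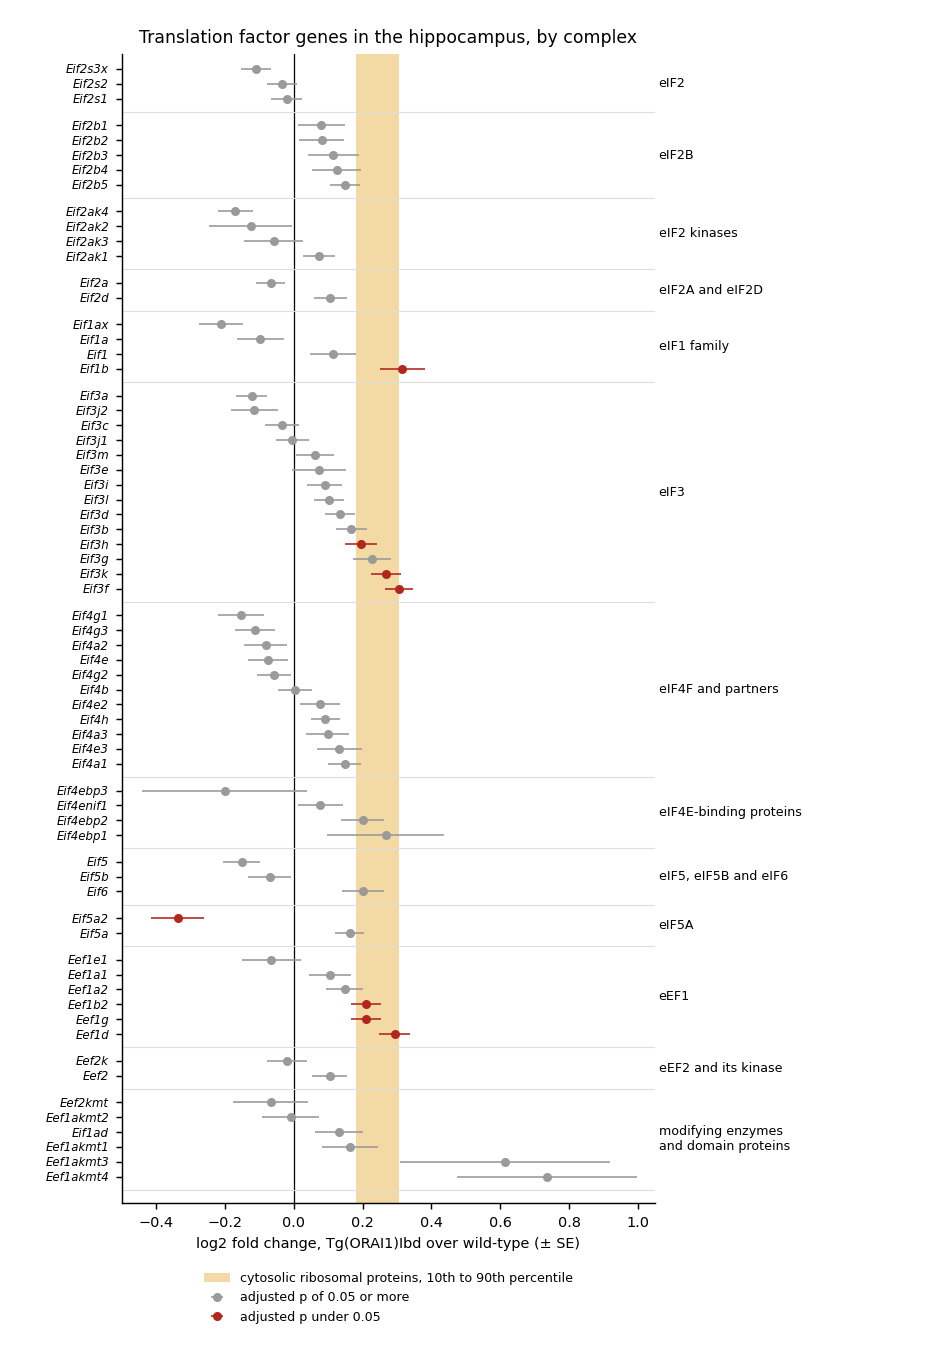
Log2 fold change (x axis, Tg(ORAI1)Ibd over wild-type, bars are the SE of the edgeR fit) of the 66 tested translation factor genes, one row per gene, sorted by complex. Red points are the 8 genes with an adjusted p under 0.05, and the shaded band spans the 10th to 90th percentile of the cytosolic ribosomal proteins (0.18 to 0.31), in which 10 members lie.

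The cytosolic ribosomal proteins were higher as a group, and most factors were not at their level of change. All 79 ribosomal protein genes had positive log2 fold changes, from 0.05 to 0.34 with a median of 0.25, and 60 of them passed the adjusted test. This count was 0 without wild-type mouse 1, wild-type mouse 2 or transgenic mouse 3, and 4 without transgenic mouse 2, while their median was 0.23, 0.27, 0.27 and 0.28 in these fits. They took 1.04% to 1.11% of the counts in wild-type and 1.27% to 1.30% in transgenic mice. The middle range of their log2 fold changes, from the 10th to the 90th percentile, ran from 0.18 to 0.31. Only 10 of the 66 members fell within it, 4 of them in eIF3, 3 in eEF1, 2 among the eIF4E-binding proteins, and Eif6. Below the range lay 53 members, of which 26 were at or under 0, and 3 lay above it. The mean log2 CPM of the ribosomal proteins exceeded that of the factors by 0.98 to 1.04 in the wild-type and by 1.18 to 1.21 in the transgenic mice, so the gap between both lists was wider in every transgenic mouse. Summed over their genes, the ribosomal proteins were 18.6% higher in the transgenic mice and the factors 3.62% higher.

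The complexes differed in direction when their genes were summed: eEF1, eEF2 and its kinase, eIF2B, eIF3, eIF5A and the eIF4E-binding proteins were higher in the transgenic mice, and eIF2, eIF4F and the group of eIF5, eIF5B and eIF6 were lower. The summed level of the 6 eEF1 genes was at 97.8%, 99.3% and 102.9% of the wild-type mean in the wild-type mice and at 107.6%, 111.3% and 109.1% of it in the transgenic mice. That of the 14 eIF3 genes was at 100.2%, 100.5% and 99.3% against 106.8%, 105.4% and 104.3%. The groups did not overlap in either complex. The summed eIF2B level was 8.44% higher and the summed level of eEF2 and its kinase 7.05% higher, again without overlap. So were the eIF4E-binding proteins, by 11.01%, and eIF5A, by 3.33%. Lower without overlap were eIF2 by its sum (95.7%, 96.6% and 93.1% of the wild-type mean in the transgenic mice), eIF4F and its partners (97.4%, 98.2% and 97.4%), and the group of eIF5, eIF5B and eIF6 (91.6%, 94.0% and 94.3%). These sums are led by the most abundant gene of each group and were not tested. The direction of eIF4F is that of its sum alone, since 6 of its 11 genes had positive log2 fold changes, with a median of 0.0038 that came to 0.064 with offsets for GC content, and that of eIF2 turned in its median with the same offsets. The median of eIF5, eIF5B and eIF6 also turned, from −0.07 to 0.048, and Eif5, which leads that sum, went from −0.15 to −0.0038. Among the higher sums, the median of eEF2 and its kinase went from 0.04 to 0.0008 with these offsets. Eef2, which leads that sum, went from 0.10 to 0.02. Eif5a leads the eIF5A sum, while the median of the 2 eIF5A genes was −0.09 and Eif5a2 was lower. With the offsets the medians of eEF1, eIF2B, eIF3 and the eIF4E-binding proteins were 0.17, 0.094, 0.14 and 0.13.

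**Figure D2:**
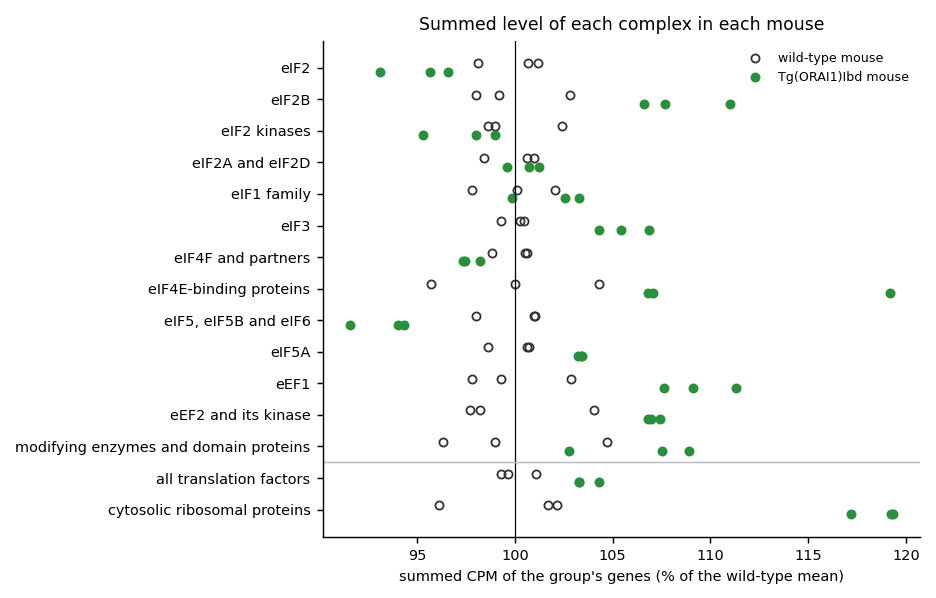
Summed CPM of the genes of each complex in each mouse (x axis, % of the wild-type mean), with all translation factors and the cytosolic ribosomal proteins in the bottom rows. Open circles are wild-type and filled circles Tg(ORAI1)Ibd mice; the transgenic mice lie at 117.2% to 119.4% for ribosomal proteins and at 103.3% to 104.3% for all factors.

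Among the eEF1 genes the subunits of the exchange factor rose and the tRNA carrier itself did not pass edgeR's test. Eef1d (ENSMUSG00000055762, GRCm38 chromosome 15, 75894205 to 75909556), the delta subunit that exchanges the nucleotide of eEF1A, was at 66.8, 65.4 and 70.2 CPM in the wild-type and at 82.1, 81.1 and 84.7 CPM in the transgenic mice. Its log2 fold change was 0.29 (SE 0.05, edgeR adjusted p = 0.0206), a rise of 22.5%. Every transgenic mouse was above every wild-type mouse.
Eef1b2 (ENSMUSG00000025967, chromosome 1, 63176825 to 63180486), the other exchange subunit, was at 107, 108 and 114 CPM against 126, 126 and 128 CPM, a log2 fold change of 0.21 (SE 0.04, edgeR adjusted p = 0.0353). Eef1g (ENSMUSG00000071644, chromosome 19, 8967041 to 8978479), which anchors the exchange subunits, was at 178, 175 and 187 CPM against 212, 204 and 209 CPM, a log2 fold change of 0.21 (SE 0.04, edgeR adjusted p = 0.0375). The groups were apart in both genes. In 19 other fits the call was lost in 4 for Eef1d, 7 for Eef1b2 and 10 for Eef1g. Vars, the valyl-tRNA synthetase bound to this complex, had a log2 fold change of 0.19 (edgeR adjusted p = 0.0761).

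Eef1a1 and Eef1a2 encode the carrier, the first in most cells and the second in neurons and muscle, and they were the most abundant members per length. Eef1a1 was at 773 ± 27.0 FPKM (counts scaled to the library total and to the exonic length, SD, n = 3) in wild-type and at 831 ± 38.1 FPKM in transgenic mice, and Eef1a2 at 369 ± 5.28 and 408 ± 18.4 FPKM. In CPM Eef1a1 was at 1859, 1928 and 1993 against 1973, 2163 and 2078, and the transgenic range began within the wild-type range. Eef1a2 was at 774, 755 and 775 CPM against 895, 825 and 833 CPM and did not overlap. The log2 fold changes were 0.10 (SE 0.06, edgeR adjusted p = 0.312) for Eef1a1 and 0.15 (SE 0.05, edgeR adjusted p = 0.120) for Eef1a2, which fell to 0.03 with offsets for GC content, where Eef1a1 was at 0.16 (edgeR adjusted p = 0.166). DESeq2 called Eef1a2 (adjusted p = 0.0469) and not Eef1a1 (adjusted p = 0.161). Eef1e1, a scaffold of the tRNA synthetase complex, had the lowest value of the group, with 18.5, 15.8 and 17.7 CPM against 15.2, 17.6 and 16.9 CPM and a log2 fold change of −0.07 (SE 0.09, edgeR adjusted p = 0.669), and its sign turned with offsets for GC content.

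Eef2, the translocase, was at 950, 955 and 1017 CPM in wild-type and at 1046, 1053 and 1041 CPM in transgenic mice. The groups did not overlap, but the log2 fold change of 0.10 (SE 0.05) gave an edgeR adjusted p of 0.232, and it came to 0.02 with offsets for GC content. Eef2k, the calcium and calmodulin dependent kinase that phosphorylates eEF2, was at 48.7, 49.0 and 46.2 against 46.6, 44.8 and 50.6 CPM, a log2 fold change of −0.02 (SE 0.06, edgeR adjusted p = 0.860). Its groups overlapped, and its sign depended on the fit.

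eIF3, the scaffold of initiation, had 3 subunits that rose (21.4%, against 3.10% of all genes) and 11 that did not pass the test. Of 14 tested genes 10 had positive log2 fold changes, with a median of 0.10 and a range from −0.12 to 0.31. The 3 that passed the test belong to the octameric core of the complex, which also holds the products of Eif3a, Eif3c, Eif3e, Eif3l and Eif3m. Eif3f (ENSMUSG00000031029, chromosome 7, 108934417 to 108942951), an MPN-domain subunit, was at 86.1, 89.8 and 89.6 CPM in wild-type and at 107.9, 108.2 and 112.0 CPM in transgenic mice. The log2 fold change was 0.31 (SE 0.04) with an edgeR adjusted p of 0.0143, a rise of 23.6% and the smallest p among the members.
Eif3k (ENSMUSG00000053565, chromosome 7, 28971372 to 28981864), the smallest core subunit, was at 52.7, 53.6 and 54.0 CPM against 66.5, 63.2 and 63.4 CPM, a log2 fold change of 0.27 (SE 0.04, edgeR adjusted p = 0.0219). Eif3h (ENSMUSG00000022312, chromosome 15, 51786558 to 51865523), the other MPN-domain subunit, was at 84.8, 88.9 and 88.0 CPM against 102.5, 101.5 and 95.4 CPM. Its log2 fold change of 0.19 (SE 0.05, edgeR adjusted p = 0.0491) lay just inside the threshold and passed it in only 3 of 19 other fits. All transgenic mice were above all wild-type mice in these 3 genes. Eif3f lost the call in 3 of the 19 fits and Eif3k in 7.

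Just outside the threshold were Eif3g and Eif3b, RNA-binding subunits of the module around the mRNA entry channel. Eif3g was at 47.3, 47.5 and 49.4 CPM against 60.1, 54.7 and 54.2 CPM (log2 fold change 0.23, SE 0.05, edgeR adjusted p = 0.0503), and Eif3b at 88.7, 88.5 and 86.8 CPM against 103.5, 94.98 and 97.9 CPM (0.17, SE 0.05, edgeR adjusted p = 0.0672). DESeq2 called both (adjusted p = 0.0169 and 0.0414), and with offsets for GC content their log2 fold changes were 0.16 and 0.096 (edgeR adjusted p = 0.141 and 0.274). At the other end was Eif3a, the largest subunit of the core, with 218, 204 and 202 CPM in wild-type and at 191, 193 and 189 CPM in transgenic mice. Its groups did not overlap either, in the lower direction, with a log2 fold change of −0.12 (SE 0.05, edgeR adjusted p = 0.131) that came to −0.02 (edgeR adjusted p = 0.853) with offsets for GC content.

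**Figure D3:**
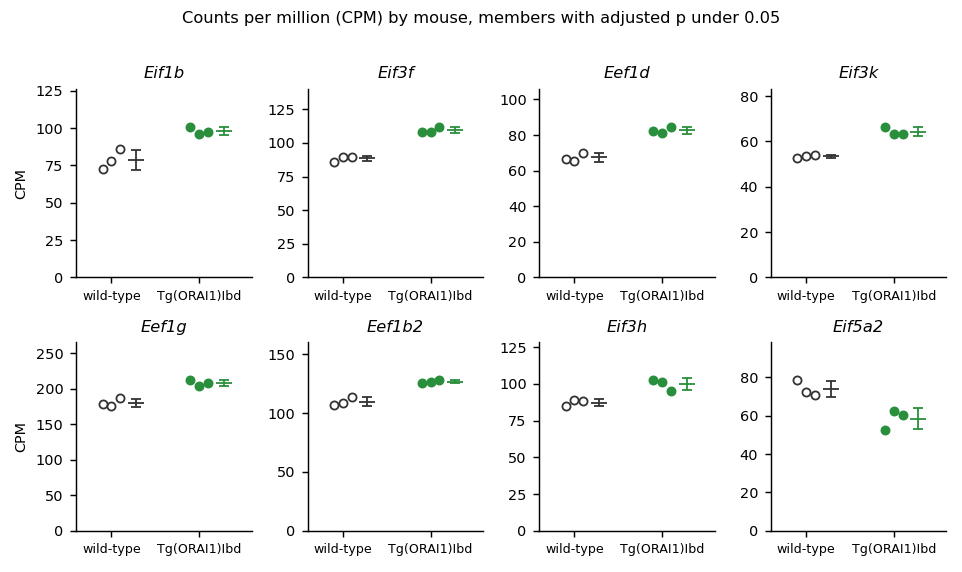
CPM (y axis, from 0) of the 8 members with an adjusted p under 0.05 in each wild-type (open) and Tg(ORAI1)Ibd (filled) mouse, with the mean and SD of the 3 mice beside the points. No gene overlaps between groups; Eif1b is at 72.4 to 85.8 CPM in wild-type and at 95.7 to 100.9 CPM in transgenic mice, and Eif5a2 is the one gene that is lower.

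eIF2, its exchange factor and its kinases did not pass the test in any gene, by edgeR, limma-voom or DESeq2. At an unadjusted p under 0.05, 1 gene of eIF2 was lower, 1 of eIF2B higher and 1 kinase lower, where 27.8% of all genes passed. The subunits of eIF2 had log2 fold changes from −0.11 to −0.02. Eif2s1, the alpha subunit that the kinases phosphorylate, was at 42.5, 42.8 and 41.3 CPM in wild-type and at 41.8, 40.4 and 42.5 CPM in transgenic mice (−0.02, SE 0.05, edgeR adjusted p = 0.807). The groups overlapped throughout. Eif2s3x, the X-linked gamma subunit, was at 139, 138 and 132 CPM against 127, 130 and 123 CPM (−0.11, SE 0.04, edgeR adjusted p = 0.153) and did not overlap. The median of the 3 subunits, −0.04, turned to 0.15 with offsets for GC content, which runs from 38.7% to 44.1% in their longest transcripts.
All 5 eIF2B subunits had positive log2 fold changes, from 0.08 to 0.15 with a median of 0.12. The highest was Eif2b5, the catalytic epsilon subunit, with 46.4, 47.5 and 47.3 CPM against 51.8, 51.3 and 53.4 CPM (0.15, SE 0.04, edgeR adjusted p = 0.0747), and its groups were apart. The lowest was Eif2b1, the regulatory alpha subunit, with 20.3, 22.8 and 20.3 CPM against 23.0, 22.6 and 21.4 CPM (0.08, SE 0.07, edgeR adjusted p = 0.491).

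Of the kinases, Eif2ak4 (GCN2, which senses uncharged tRNA) was at 40.8, 41.6 and 38.5 CPM in wild-type and at 36.3, 35.2 and 35.9 CPM in transgenic mice, for a log2 fold change of −0.17 (SE 0.05, edgeR adjusted p = 0.0787). The groups did not overlap. Eif2ak3 (PERK, which senses unfolded protein in the endoplasmic reticulum) was at 30.02, 28.4 and 34.8 CPM against 29.1, 31.7 and 28.7 CPM (−0.06, SE 0.09, edgeR adjusted p = 0.698) and overlapped. Over the 4 kinases the log2 fold changes ran from −0.17 to 0.07. Among 16 genes that the eIF2 kinases are known to induce, Ddit3 (0.45, edgeR adjusted p = 0.0205) and Shmt2 (0.31, edgeR adjusted p = 0.0367) rose and Vldlr fell by 0.26 on the log2 scale (edgeR adjusted p = 0.0200). That is 3 of the 16 (18.8%), against 7.10% of all genes. With offsets for GC content, and with offsets for length, 1 of the 16 was higher and 0 were lower. Atf4, the factor that drives this response, had a log2 fold change of 0.19 (edgeR adjusted p = 0.255), and the median of the 16 was 0.08.

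The cap-binding complex eIF4F and its partners were spread about 0, and no gene passed the test by edgeR, limma-voom or DESeq2. Of 11 tested genes 6 had positive and 5 negative log2 fold changes, from −0.15 to 0.15. At an unadjusted p under 0.05, 1 of them passed, where 27.8% of all genes did. The highest was Eif4a1, the RNA helicase, with 225, 231 and 220 CPM in wild-type and at 261, 244 and 244 CPM in transgenic mice (0.15, SE 0.05, edgeR adjusted p = 0.0953). Its groups were apart. The lowest was Eif4g1, the scaffold, with 325, 308 and 292 CPM against 301, 262 and 269 CPM (−0.15, SE 0.07, edgeR adjusted p = 0.188), and its groups overlapped.
Eif4e, the cap-binding subunit, was at 101.6, 92.4 and 93.7 CPM against 86.0, 93.6 and 93.7 CPM (−0.07, SE 0.06, edgeR adjusted p = 0.436). Eif4g2, a scaffold that does not bind eIF4E, was at 600, 608 and 640 CPM against 571, 605 and 600 CPM (−0.06, SE 0.05, edgeR adjusted p = 0.504). Both overlapped, and both changed sign with offsets for GC content.

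The eIF4E-binding proteins compete with eIF4G for eIF4E until mTOR phosphorylates them. Eif4ebp2, the main form in brain, was at 71.2, 75.0 and 70.3 CPM in wild-type and at 90.2, 78.9 and 79.6 CPM in transgenic mice, without overlap (log2 fold change 0.20, SE 0.06, edgeR adjusted p = 0.0914). Eif4ebp1 was low, at 1.34, 1.37 and 1.77 CPM against 1.65, 1.86 and 1.87 CPM, or 58 to 77 counts a library (0.27, SE 0.17, edgeR adjusted p = 0.348). Its groups overlapped. Eif4ebp3 shares 67.3% of its exonic sequence with another gene on its strand, so its 21 to 39 counts a library are uncertain.

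In the eIF1 family, which holds the ribosome open while it scans for a start codon, only Eif1b passed the test. Eif1b (ENSMUSG00000006941, chromosome 9, 120492232 to 120495330), a close copy of Eif1, was at 72.4, 78.1 and 85.8 CPM in wild-type and at 100.9, 95.7 and 97.1 CPM in transgenic mice. The log2 fold change was 0.32 (SE 0.07, edgeR adjusted p = 0.0370), a rise of 24.4%. The groups did not overlap, and the call was lost in 11 of 19 other fits, among them those with offsets for GC content (0.27, edgeR adjusted p = 0.0706) and for length (0.25, edgeR adjusted p = 0.0603). Named after their values were seen, Eif1 itself had a log2 fold change of 0.11 (edgeR adjusted p = 0.317), and Eif1ax, the X-linked gene of eIF1A, one of −0.21 (edgeR adjusted p = 0.0866, DESeq2 adjusted p = 0.0367) that shrank to −0.03 (edgeR adjusted p = 0.734) with offsets for GC content.

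The eIF5A genes encode the only proteins known to carry hypusine, which help the ribosome past difficult peptide bonds. Eif5a2 (ENSMUSG00000050192, chromosome 3, 28781276 to 28798846) was at 78.6, 72.3 and 70.7 CPM in wild-type and at 52.4, 62.7 and 60.4 CPM in transgenic mice. Its log2 fold change of −0.34 (SE 0.08, edgeR adjusted p = 0.0445), a fall to 0.79 of the wild-type level, shrank to −0.14 (edgeR adjusted p = 0.154) with offsets for GC content. The Eif5a2 call was lost in 11 of 19 other fits, among them those with the replicate block (edgeR adjusted p = 0.0686) and with length offsets (edgeR adjusted p = 0.0534). Eif5a, the main form, was at 205, 212 and 207 CPM against 239, 228 and 231 CPM (0.16, SE 0.04, edgeR adjusted p = 0.0575). DESeq2 called it (adjusted p = 0.0122), and with offsets for GC content it was at 0.10 (edgeR adjusted p = 0.211). Both genes had groups that were apart, in opposite directions. Dhps and Dohh, the enzymes that make hypusine, had log2 fold changes of 0.10 (edgeR adjusted p = 0.291) and 0.18 (edgeR adjusted p = 0.219).
Eif6, which keeps the large subunit from joining too early, was at 28.4, 31.8 and 29.7 CPM against 35.0, 33.0 and 35.5 CPM (0.20, SE 0.06, edgeR adjusted p = 0.0829), without overlap, and with offsets for GC content its log2 fold change was 0.11. Eif5 and Eif5b, which act in subunit joining, had log2 fold changes of −0.15 and −0.07, neither past the adjusted threshold.

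The 6 modifying enzymes and domain proteins held the 2 largest fold changes of all members, and both rest on few counts. Eef1akmt4 had 20, 20 and 11 counts in wild-type and 27, 22 and 29 in transgenic libraries (log2 fold change 0.73, SE 0.26, edgeR adjusted p = 0.121), and Eef1akmt3 had 8, 11 and 9 against 14, 14 and 12 counts (0.61, SE 0.30, edgeR adjusted p = 0.235). Neither passed the adjusted test, and exons of Eef1akmt4 overlap another gene on its strand. The other 4 had log2 fold changes from −0.07 to 0.16. Both genes were named after their values were seen.

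Within-mouse ratios of related genes set aside the scaling of the libraries. The 9 pairs were chosen with the values of their genes known, and several set a gene that was higher against one that was lower, so the ratios are a description, with no test. The log2 FPKM ratio of Eif5a to Eif5a2 was 2.58 ± 0.10 (SD, n = 3) in wild-type and 3.08 ± 0.17 in transgenic mice, that is 5.97 and 8.47 times as much Eif5a as Eif5a2. The ratio of Eif1b to Eif1ax was 1.00 ± 0.16 and 1.53 ± 0.15, and that of Eif4a1 to Eif4a2, the form that neurons favour, −1.23 ± 0.10 and −1.002 ± 0.14. With offsets for GC content these differences between groups fell from 0.50 to 0.24, from 0.53 to 0.30 and from 0.23 to 0.13. For the carriers Eef1a1 and Eef1a2 the ratio was 1.07 ± 0.05 and 1.03 ± 0.13, and the groups overlapped.

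**Figure D4:**
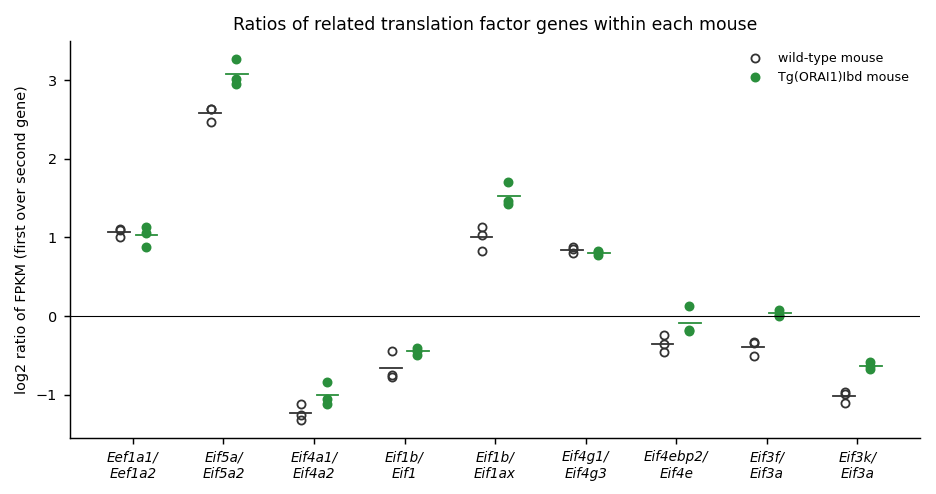
Log2 ratio of FPKM of the first over the second gene of 9 pairs (x axis) in each wild-type (open) and Tg(ORAI1)Ibd (filled) mouse, with lines at the group means. The group means of Eif1b over Eif1ax are 1.00 and 1.53 and those of Eif5a over Eif5a2 2.58 and 3.08; the pairs were chosen with these values known.

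The direction of a factor went with the base composition of its longest transcript and with the exonic length of its gene. Over the 66 members Spearman's rho between log2 fold change and the GC content of the longest transcript was 0.51, over 79 ribosomal proteins 0.28 and over 19079 genes 0.38. With the length in place of the GC content rho was −0.47 over the members and −0.17 over all genes, and −0.29 over the members with GC offsets. All of these values come from the same 6 libraries, and they describe genes, not replicates. Of the 20 members with a GC content under 45%, a limit set after the values were seen, 18 had negative log2 fold changes, with a median of −0.07, while 38 of the 46 others were positive, with a median of 0.12. Among all genes below 45% GC, 3851 of 5008 were negative, and of those at 45% or more 8055 of 14071 were positive, with a median of 0.04. When a smooth trend on GC content was removed from each library, 14 of the 20 low-GC members were positive, with a median of 0.07, rho over the members was −0.10, and the median of the other 46 was 0.11. Then 5 members passed the test, all higher (2.16% of all genes passed then, 0.880% higher and 1.28% lower). Of these Eef1b2, Eef1d, Eif3f and Eif3k had passed without the offsets, and Eif3e, a core subunit named after its values were seen, was added (0.32, edgeR adjusted p = 0.0382), which without them was at 0.07. The ribosomal proteins kept a median of 0.23 and 35 of them passed. The causes of these trends were not tested.

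**Figure D5:**
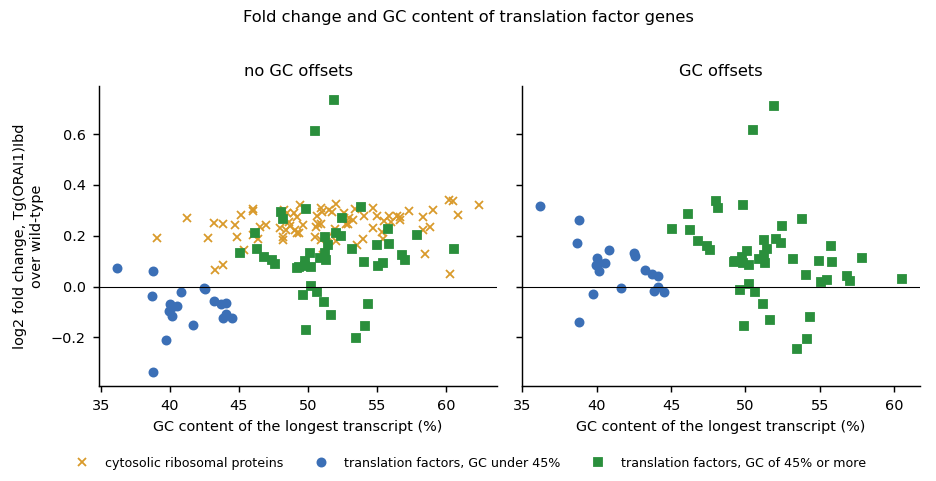
Log2 fold change (y axis, Tg(ORAI1)Ibd over wild-type) against GC content of the longest transcript (x axis, %) of the 66 tested members, without (left) and with (right) GC offsets; crosses on the left are the 79 cytosolic ribosomal proteins. On the left 18 of the 20 members under 45% GC (circles) lie below 0, and on the right 6 of them do.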

How the data were processed

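Hippocampal polyA RNA of 6 mice was sequenced as 1 library each. The authors filtered reads with Trimmomatic, aligned them to mm10 with STAR, and deposited raw counts per gene made with featureCounts 1.5.0-p1 (reverse strand, mapping quality of at least 3, Ensembl 95), not normalized. Libraries were assigned by the labels. Genes were kept by filterByExpr (minimum count 10), scaled by TMM and compared with edgeR's quasi-likelihood test without covariates (Benjamini-Hochberg, 0.05), since the test of the paper, NOISeq, was not used here. CPM are counts over the scaled library total, and FPKM also use the deposited exonic lengths. How reads that fit processed copies equally well were counted was not tested, and 10 named pseudogenes of these factors held 881 to 1269 counts a library.

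GC content came from GENCODE M21 transcripts. GC and length offsets were loess curves per library (span 0.5). Both offsets together were added after the data were seen. Fits were tested on simulated data whose planted changes were larger than those of the members that passed here. Those runs do not bear on changes of the size seen here. Members, lists and tests were chosen with earlier results of these data known. Given with every mouse were the members with the largest and smallest log2 fold change in eIF2, eIF2B, eIF3, eIF4F and eEF1, the 12 with the smallest p, and 17 fixed ones. R 4.3.3, edgeR 4.0.16, limma 3.58.1, DESeq2 1.42.0 and Python 3.11.15 were used. Protein sequences were not used here.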

Additional observations from a re-analysis of the deposited data

How the results depend on the processing

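Every named member kept its sign across other scalings (DESeq2's size factors, upper quartile, total counts), other tests (limma-voom, DESeq2) and other filters, and the reversals came from offsets, blocks with offsets or left-out mice. Over 30 named members and 19 other fits each, 470 values kept sign and side of the threshold, 69 lost the call, 5 gained it and 26 changed sign. DESeq2 called 11 members higher and 2 lower, 1055 genes higher and 1175 lower. With no filter, with 10 counts in every library, with GC offsets, with the block and GC offsets, and with both offsets the median over the members was 0.091, 0.092, 0.099, 0.098 and 0.096. With GC offsets 168 genes were higher and 244 lower, 35 ribosomal proteins higher and 0 members lower (2 to 6 at an unadjusted p under 0.05 here and in the other fits with offsets or the block). With length offsets 372 genes were lower, 22 ribosomal proteins (median 0.21) and 3 members higher and 0 members lower. With both offsets 169 genes were higher and 233 lower, 27 ribosomal proteins (median 0.20) and 4 members higher and 0 members lower. Deviations of same-numbered mice had a mean r of 0.14 over 3 pairs (−0.36 to 0.40, 11191 genes). Over 6 pairs of unequal number the mean was −0.09 (−0.59 to 0.54). So few pairs with such wide ranges cannot decide whether the replicate number marks a pairing. With the replicate block 263 genes were higher and 475 lower, 34 ribosomal proteins and 3 members higher (Eef1d, Eif3f and Eif3k) and 0 members lower. With the block and GC offsets the values were 164, 310, 30, 4 and 0, and with the block and length offsets 230, 339, 3 (median 0.21), 2 and 0. Leaving out 1 mouse in turn gave 11 to 466 genes higher and 66 to 683 lower, 0 to 6 members higher and 0 to 1 lower (1 to 9 lower at an unadjusted p under 0.05) with medians from 0.058 to 0.12, and 0 to 51 ribosomal proteins higher with medians from 0.23 to 0.28. The reversed values of the eIF2 median and Eif2s1 were 0.15 with GC offsets, 0.0096 with length offsets, 0.14 with the block and GC offsets, 0.0092 with the block and length offsets, and 0.15 with both offsets. With GC offsets, the block and GC offsets, and both offsets Eef1e1 was at 0.041, 0.043 and 0.024 and Eif4e at 0.094, 0.095 and 0.11. Eif4g2 was at 0.064 with GC offsets, 0.052 with length offsets, 0.065 and 0.053 with the block added, and 0.11 with both offsets. Eef1a2 was at −0.0032 with both offsets, and Eef2k at 0.053, 0.052 and 0.0057 with length offsets, the block and length offsets, and both offsets. With 1 mouse left out Eef2k ran from −0.049 to 0.042, Eif2ak3 from −0.10 to 0.035, Eif2s1 from −0.031 to 0.024 and the eIF4F median from −0.0052 to 0.037. The causes were not tested. Of the 66 tested members 62 had 100 or more counts in every library, and the other 4 had fewer in some library. How depth limits the calls was not tested.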

Other observations

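Of 23 partners in initiation, elongation and termination outside the Eif and Eef symbols 2 passed edgeR's adjusted test (8.70%, against 7.10% of all genes), both lower, and 13 of the 23 had positive fold changes, with a median log2 fold change of 0.0076. Ddx3x, an RNA helicase that helps structured mRNAs start, fell from a mean of 358 CPM to 274 CPM in the transgenic mice (−0.38, edgeR adjusted p = 0.0406), and Gspt1, the release factor eRF3a, from 83.2 to 70.3 CPM (−0.24, edgeR adjusted p = 0.0396). With offsets for GC content 1 of the 23 passed, in the higher direction, and 1 passed in the lower direction with offsets for length and with the replicate block. Tpt1, whose mRNA carries a TOP motif, was at 329 and 386 CPM (0.23, edgeR adjusted p = 0.165).

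Of 14 regulators of translation 1 rose, Mknk2, a kinase of eIF4E, from 39.1 to 45.8 CPM (0.23, edgeR adjusted p = 0.0313), a share of 7.14% against 7.10% of all genes. With offsets for GC content and with the replicate block 0 of the 14 passed, and with offsets for length 1 did, in the higher direction. Mtor was at 129 and 126 CPM (−0.03, edgeR adjusted p = 0.786). The 10 mitochondrial translation factors had a median of 0.0070 and ran from −0.28 to 0.11, the lowest being Guf1, an elongation factor (edgeR adjusted p = 0.0607).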
